A study of Mus musculus with 4 samples.

Results

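Long loci with 25 to 49 eIF4A3 peaks were described in mouse embryonic stem cells: 96 stretches of the genome in which peaks on 1 strand followed each other with gaps of at most 10000 nt and covered more than 20000 nt from the first to the last. They held 3241 of the 30763 peaks in the list (10.5%) and were 96 of its 6570 loci (1.46%). The members were chosen from the positions of the peaks, so their number of peaks, their length and the upper limit on their gaps were set by the choice and are not results. The peaks come from enhanced crosslinking and immunoprecipitation (eCLIP), in which protein and RNA are crosslinked by ultraviolet light, the protein is pulled down and the RNA held by it is sequenced. The 4 libraries were 2 pulled down with an antibody to eIF4A3 and 2 input libraries made with no antibody. Both groups came from 1 cell line, J1 of strain 129S4/SvJae, grown without feeder cells in serum and leukemia inhibitory factor and irradiated at 400 mJ/cm2 and 254 nm. The submitters' list holds 1 fold change and 1 p-value for each peak and no value per library, so no spread between the 2 biological replicates can be given, and the read depth is unknown.

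eIF4A3 is the RNA helicase at the core of the exon junction complex, which the spliceosome places on messenger RNA a short way upstream of each exon-exon junction. A transcript with many exons therefore offers many places for the complex, and on the genome those places are separated by the introns that were removed. In the cytoplasm the complex is cleared from a messenger RNA by translating ribosomes, and complexes that stay behind downstream of a stop codon mark the RNA for nonsense-mediated decay. A locus as defined here is a stretch of genome and not an annotated gene: 1 gene can give several loci if an intron is long, and neighbouring genes on a strand can be joined into 1. The peaks are on the mouse build mm9. No mm9 annotation or sequence was used here, so loci are named by position, as written in the list, and no gene name is given.

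Whether the loci are genes with many bound exons was checked only in part. Exons of coding transcripts from an annotation of the later build, GRCm38, were laid at the positions printed in the list, as a check of the builds and with no conversion. In 71 loci no peak met an exon of the same strand, and in 23 loci some peaks did, at most 40% of them. In the remaining 2 loci every peak met an exon of the same strand and none met an exon of the opposite strand. These were the loci at chr8:3500505-3536869 (plus strand), with 45 of 45 peaks, and at chr8:12806651-12849887 (plus strand), with 42 of 42. Over the other 94 loci, 77 of 3154 peaks (2.44%) met an exon of the same strand, and over all 96 loci 123 peaks (3.80%) met one of the opposite strand. The 2 loci were picked out after their overlap had been seen, and the check says nothing of the other loci, whose positions may differ between the builds.

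The loci were spread over 19 chromosomes. Chromosome 2 had 11, chromosome 4 had 10 and chromosomes 8 and 15 had 9 each, while chromosomes 12, 13 and 18 had 1 each. The plus strand carried 51 loci and the minus strand 45. No peak of the opposite strand lay inside any of the 96 spans. How often this holds for other loci of the list was not counted, so nothing is read from it. A further peak of the same strand lay beyond the 10000 nt limit but within 20000 nt of an end in 46 loci (47.9%), at the 5′ end in 32, at the 3′ end in 27 and at both in 13. For these the first or last peak of the locus need not be the edge of the bound RNA.

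The spans ran from 20005 nt to 80236 nt, with a median of 36585.5 nt and quartiles of 26975.5 and 45161.8 nt. Peaks closer than 51 nt to each other were joined into sites, since 822 peaks (25.4%) began at the position right after the end of another. This gave 2072 sites. A single peak made up 1288 of them (62.2%), and up to 7 peaks were joined in 1 site. A locus had between 12 and 31 sites with a median of 21. The peaks themselves covered little of the spans, from 1.27% to 6.16% of a locus with a median of 2.66%. They were narrow, with widths of 13, 25 and 42 nt at the quartiles and the median and of 144 nt at most. Of them 23 peaks (0.710%) reached 100 nt, beside 601 (1.95%) in the whole list.

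**Figure D1:**
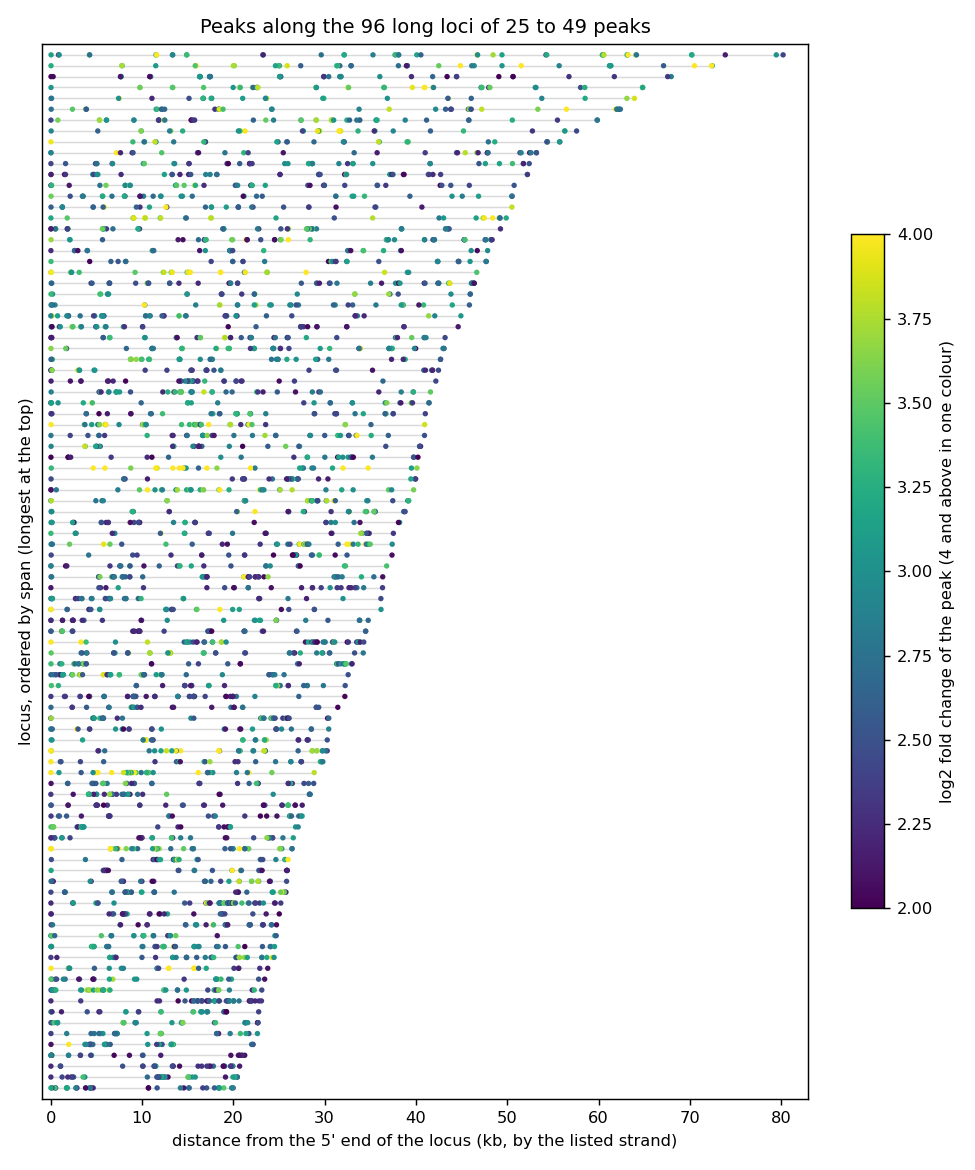
Each row is 1 of the 96 loci, ordered by span, and each point is a peak at its distance in kb from the 5′ end of the locus, coloured by its log2 fold change (values of 4 and above share a colour). In 81 of 96 loci a site lies in at least 8 of 10 equal parts of the span. The span runs from the first to the last peak, so its end parts hold peaks by definition.

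Spacing within a locus was broad. Over the 1976 distances between neighbouring sites the median was 1013 nt, with quartiles of 269 and 2555 nt. The 10th and the 90th percentile were 94 nt and 4760 nt, and the longest of all was 9821 nt. Distances under 200 nt made up 21.2% and distances over 5000 nt made up 8.96%. The short and the long distances were mixed within the same loci: after taking log2 of the distances, differences between loci accounted for 3.96% of the variance, with an SD of 1.99 within loci and 0.40 between them. The median distance of a locus nevertheless ranged from 250 nt to 3801 nt, with a median over loci of 1122 nt.

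Beside these distances stand the introns of annotated genes, compared by length alone and without use of position. In GENCODE M21, the transcript with the most exons was taken for each of 21899 coding genes. In 1138 genes this transcript had 25 to 49 exons and spanned over 20000 nt, and the median intron of these transcripts was 1371 nt. Most of these transcripts could not form a single locus, because an intron over 10000 nt would split it. In the 364 with no such intron, the median span was 42462 nt, the median intron 784 nt and the quartiles 257 and 1779 nt. Introns under 200 nt were 20.3% of these and introns over 5000 nt were 3.77%. In the full 1138 transcripts the shares were 11.8% and 15.6%. The share of distances under 200 nt, 21.2%, was therefore close to the first set and above the second, and the share over 5000 nt, 8.96%, lay between the sets. The limit on introns was chosen after seeing the data, no difference was tested, and the annotated genes include ones that these cells may not express. A distance and an intron have the same length only where both neighbouring exons carry a peak that reaches their edges. The range of 25 to 49 counts exons in the transcripts but peaks in the loci, which are unlike units. Both sets of transcripts had a median of 30 exons, while a locus had 12 to 31 sites with a median of 21. Neighbouring sites can also lie in the same exon, so a short distance need not be an intron, and how often this happens was not tested.

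**Figure D2:**
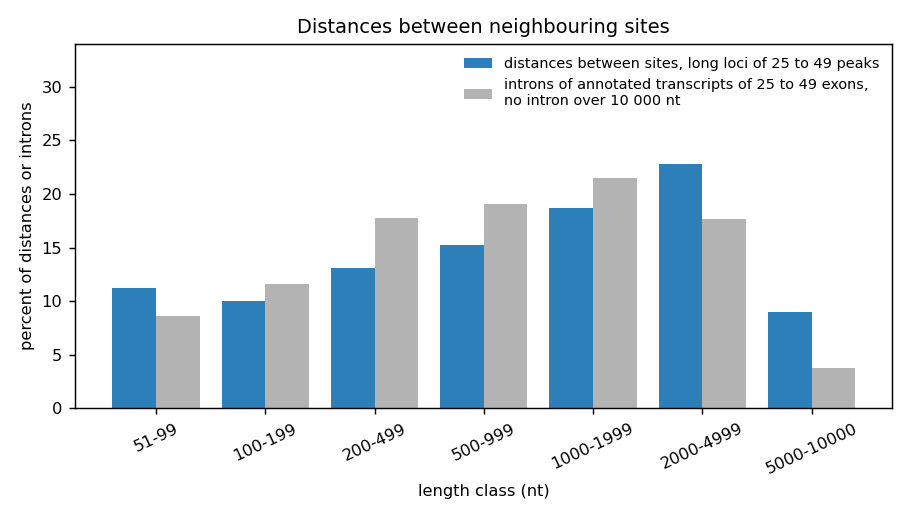
Bars give the percent of the 1976 distances between sites in the 96 loci (blue) and of the 11398 introns in annotated transcripts with no intron over 10000 nt (grey) in each length class in nt. The class of 2000 to 4999 nt holds 22.8% of the distances and 17.7% of the introns, and the class of 5000 to 10000 nt holds 8.96% and 3.77%.

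The evenness of the spacing varied between loci. The coefficient of variation of the distances (their SD divided by their mean, lower for more even spacing) had a median of 1.09 over the 96 loci and ranged from 0.63 to 1.89. In 62 loci the SD of the distances was larger than their mean, and in 34 it was not. The longest distance took a median of 19.6% of the span, from 10.3% to 38.6%, and exceeded 25% in 22 loci. The 3 longest distances together took a median of 46.6%. The sites reached all 10 equal parts of the span in 24 loci, 9 parts in 25, 8 in 32, 7 in 14 and 6 in 1. The fullest of the 10 parts held a median of 21.6% of the sites and at most 41.2%. Because no distance can exceed 10000 nt, it takes a smaller share of a longer locus by construction, and over the 96 loci, which all come from the same libraries, the Spearman correlation of the span with the share of the longest distance was -0.69.

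Neither end of the loci held more sites in general. The 5′ part, taken as the first 50% of the span by the listed strand, held more than 50% of the sites in 41 loci, fewer in 45 and exactly 50% in 10. The median share was 50% and the quartiles were 41.8% and 57.9%. Single loci were far from this. The 5′ part held 8% of the sites in the least 5′-heavy locus and 85% in the most 5′-heavy locus.

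The most even locus was that at chr14:103641565-103705504 (minus strand). Its 25 peaks formed 17 sites over 63940 nt with a median distance of 3801 nt, a longest of 7670 nt and a coefficient of variation of 0.63. Only 1 pair of its sites, 80 nt apart, lay closer than 788 nt. Its peaks had a lowest, median and highest fold change of 4.68, 8.07 and 19.7. The next was that at chr2:51928602-51951405 (plus strand), with 28 peaks in 14 sites over 22804 nt and a longest distance of 3486 nt, the shortest such value of the 96. Ranked after it, the locus at chr17:29811165-29834950 (plus strand) had 26 peaks in 16 sites and a longest distance of 3656 nt. Each of these 3 loci had a site in at least 9 of the 10 parts of its span.

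The least even locus lay at chr8:86439442-86462526 (plus strand), with 43 peaks in 25 sites and a coefficient of variation of 1.89. Its first sites were at 0 and 3278 nt from the 5′ end, followed by an empty stretch of 8314 nt, or 36.0% of the span. The other 23 sites lay from 11598 nt onward, separated by distances between 53 and 2023 nt. At chr15:75879510-75901659 (minus strand), 19 of 21 sites started within 13426 nt of the 5′ end, and a stretch of 8544 nt without peaks (38.6% of the span, the largest share of the 96) came before the last pair. Next, the locus at chr7:51788783-51809219 (minus strand) had 8 sites up to 3721 nt, a stretch of 6827 nt without peaks and then 17 sites. It was the locus with sites in 6 of the 10 parts. Whether an empty stretch of this kind is a long intron or the space between genes was not checked.

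**Figure D3:**
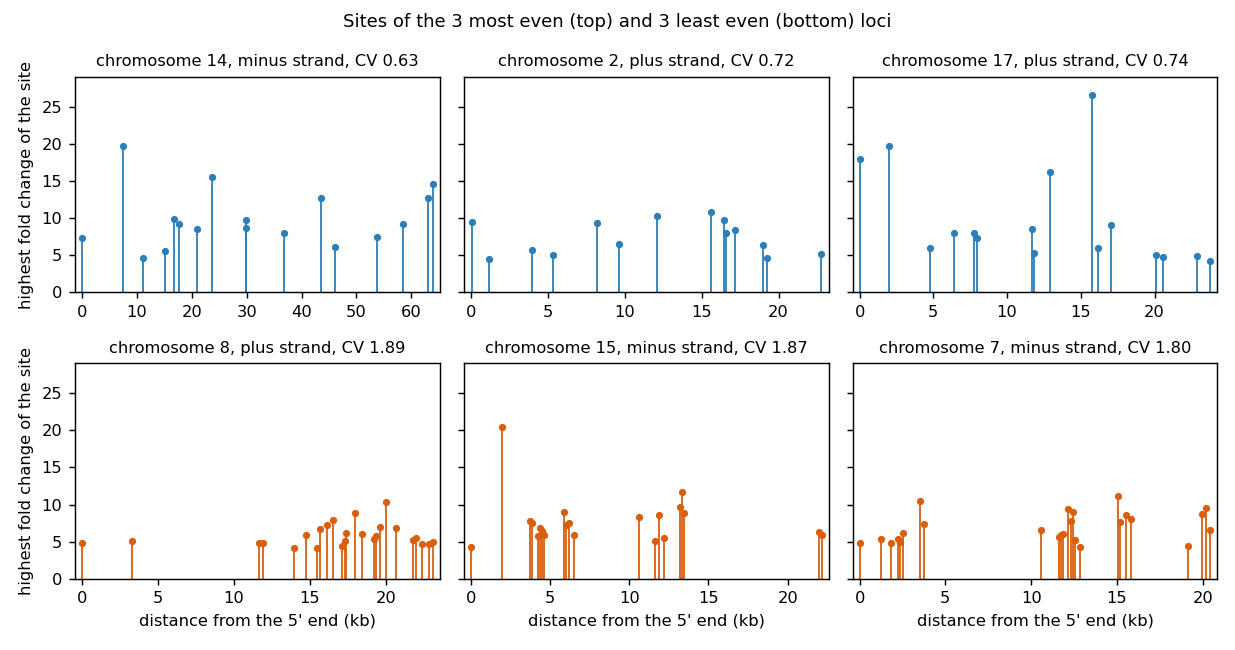
Each panel is a locus, with the distance from its 5′ end in kb across and the highest fold change among the peaks of each site upward. In the top row, the 3 loci with the smallest coefficient of variation (0.63, 0.72 and 0.74) have sites along the whole span, and in the bottom row the 3 with the largest (1.89, 1.87 and 1.80) have crowded groups of sites beside an empty stretch.

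The longest locus, at chr5:33206409-33286644 (plus strand), spread 45 peaks in 26 sites over 80236 nt. Its median distance was 2485 nt and it had sites in all 10 parts of the span. Its fold changes were 4.45 at the lowest peak, 8.67 at the median and 27.2 at the highest. Second in length was the locus at chr5:102325487-102397970 (minus strand), whose 38 peaks in 28 sites had a median of 8.98-fold and reached 43.4-fold. After it came the locus at chr1:84722401-84790373 (minus strand), whose 45 peaks in 22 sites over 67973 nt had a median of 6.59-fold and reached 9.58-fold. The 3 longest loci were alike in evenness, with coefficients of variation of 0.78, 0.79 and 0.76, and unlike in their peak values. Over the 96 loci the Spearman correlation of the span with the coefficient of variation was -0.48. The limit on gaps keeps each distance short beside a long span, and its part in the evenness of these loci was not tested. The median −log10 p of the 3 longest loci was 10.4, 10.2 and 24.5, highest in the locus with the lowest fold changes.

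The loci with the most peaks were shorter than these 3 longest loci. The 49 peaks at chr11:77631157-77663739 (plus strand) formed 25 sites over 32583 nt, and 76.0% of these sites lay in the 5′ part. The 49 peaks at chrX:12671177-12717566 (plus strand) formed 30 sites over 46390 nt and reached all 10 parts of the span. There were 3 loci with 46 peaks, and the one taken here was first in the order of chromosomes. The others, on chromosomes 14 and 15, were longer, with spans of 48357 nt and 49266 nt. The 46 peaks at chr10:80228943-80254160 (plus strand) formed 28 sites over 25218 nt, with 17.9% of them in the 5′ part. The 3 loci named in this paragraph had median fold changes of 7.15, 5.91 and 6.46.

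The fold changes are those of the submitters' list, from the same contrast that made the peaks, and are described without a test. Over the 3241 peaks the median log2 fold change was 2.78 (6.89-fold), with quartiles of 2.44 and 3.18. The lowest peak of most loci lay close to the lowest value in the list: in 64 of 96 loci it was within 0.1 of the list's minimum log2 fold change of 2.00. The lower end of a locus therefore follows the limit of the list, and its width is cut short from below. The median of a locus ranged from 2.26 to 3.75 (4.78-fold to 13.4-fold), with a mean of 2.79 ± 0.30 (SD, n = 96 loci). Within a locus, the middle 50% of the peaks covered a median of 0.58 on the log2 scale, from 0.26 to 1.51. The highest peak had a median of 3.36 times the fold change of the lowest peak in the same locus, from 1.86 to 16 times.

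Peaks of 1 locus differed from each other more than loci did. The SD was 0.49 among the log2 fold changes within loci and 0.27 between loci, so that 24% of the variance lay between loci. With sites in place of peaks the share was 25.2%. In 16 loci the middle 50% of the peaks lay wholly above the median over the member peaks, and in 12 loci wholly below it. In the remaining 68 loci it held that median.

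Median differences in log2 fold change were smaller for pairs that lay closer together, though by little between sites under and over 1000 nt apart. Pairs of peaks were compared by their single values and pairs of sites by the means of their peaks, which are unlike units. Adjoining peaks had a median difference of 0.20 in log2 fold change over 822 pairs, and peaks 1 to 50 nt apart differed by 0.27 over 347 pairs. Neighbouring sites differed by 0.35 where they lay under 1000 nt apart (979 pairs) and by 0.37 where they lay farther (997 pairs). Sites of a locus that were not neighbours differed by 0.42 and sites of different loci by 0.48. Adjoining peaks can share reads, which the list does not show, so their part in the first of these values was not tested. The quartiles of the neighbouring classes overlap widely, for example 0.15 to 0.64 for sites under 1000 nt apart and 0.22 to 0.84 for sites of different loci.

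**Figure D4:**
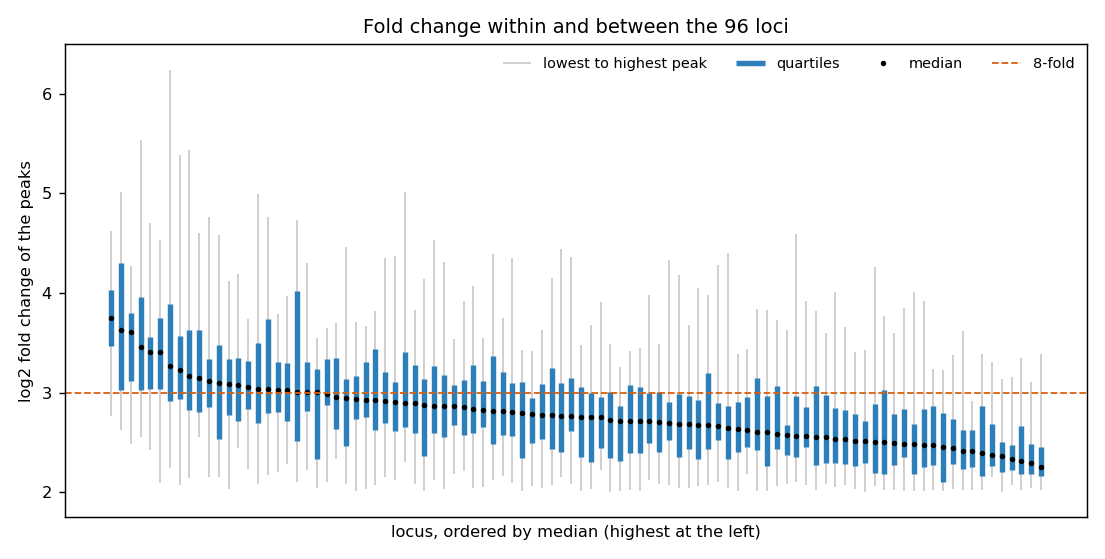
The 96 loci are ordered by the median log2 fold change of their peaks, with the quartiles as thick bars, the lowest and highest peak as thin lines and 8-fold as a dashed line. Medians run from 3.75 to 2.26, and most of the thin lines start near 2, the lower limit of the list.

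A fold change of at least 8 with p at most 0.001 was reached by 1143 of the 3241 peaks (35.3%, Wilson 95% interval 33.6% to 36.9%, which treats peaks as independent and covers counting only). In the whole list it was reached by 32.3%, and since the members were chosen from peaks called in this contrast, nothing is read from the difference. At least 16-fold with p at most 1e-05 was reached by 119 member peaks (3.67%), and by 3.65% of the whole list. The lowest −log10 p in the list is 5.01, so every peak meets both p limits and only the fold change selects. The share past 8-fold varied between loci from 0% to 93.8%, with a median of 31.6% and quartiles of 19.1% and 46.8%. It was at least 50% in 22 loci and under 10% in 8. In 1 locus no peak reached the threshold. That locus, singled out after its values were seen, lay at chr1:164622643-164654856 (minus strand), and its 45 peaks had a highest fold change of 7.53 beside a median −log10 p of 26.1.

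The same 3 loci had the highest medians and the highest shares past 8-fold. At chr7:63340524-63387196 (plus strand), 30 of 32 peaks (93.8%) passed, and the fold changes had a lowest value of 6.79, a median of 13.4 and a highest of 24.7. At chr11:84027660-84077565 (plus strand), 23 of 28 peaks (82.1%) passed, with 5.62, 12.2 and 19.3 as the lowest, median and highest. At chr2:76601312-76641451 (minus strand), 20 of 26 peaks (76.9%) passed, with 6.20, 12.4 and 32.3. In this last locus no peaks were close enough to be joined, so it had 26 sites, and its median −log10 p of 6.18 was the lowest of the 96. High fold changes there stood beside p-values close to the list's limit of 5.01 on the −log10 scale.

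The lowest median, 4.78-fold, belonged to the locus at chr8:122044235-122071785 (minus strand). It was followed by the locus at chr18:34763525-34784216 (minus strand) with 4.92-fold and that at chr4:123032435-123074621 (minus strand) with 4.98-fold. Their highest peaks reached 10.5-fold, 8.62-fold and 10.2-fold. The chromosome 8 and chromosome 18 loci were also among the 3 with the narrowest middle range, at 0.28 and 0.30 on the log2 scale. The narrowest middle range, 0.26, was that of chr9:44624732-44661077 (minus strand), where 2 of 26 peaks passed 8-fold.

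The 3 loci with the widest middle ranges had medians above 8-fold. The chromosome 17 locus named among the even ones was the widest, at 1.51: its quartiles were 5.70-fold and 16.2-fold. Along that locus the sites at 0 and 1911 nt from the 5′ end reached 18.0-fold and 19.7-fold and the site at 15674 nt reached 26.6-fold, while the last 4 sites stayed at or under 5.04-fold. Next was the chromosome 2 locus with the lone peaks, at 1.28, and then the one at chr9:67166003-67223620 (minus strand), with 0.97. This chromosome 9 locus holds the peak with the highest fold change among the members, at 75.6-fold over 30 nt, beside a locus median of 9.63-fold and a lowest peak of 4.74-fold. That highest peak had a −log10 p of 15.7, a value that 156 peaks of the list share. Over the 96 loci the Spearman correlation of the median with the middle range was 0.42. The lower limit of the list narrows the range of loci whose median is low, and the part of that limit in the relation was not tested.

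The p-values were spread differently from the fold changes. The median −log10 p over the member peaks was 13.9, with quartiles of 9.74 and 19.9, and the medians of single loci ran from 6.18 to 35.6. On the scale as listed, 14.3% of the variance lay between loci. Of the member peaks, 5 in 4 loci carried the list's highest value, 400, while the next highest member value was 84.2. In the whole list 89 peaks shared the value of 400, and whether it is a set upper limit is not stated. Without these 5 peaks and the 28 peaks at a tied value of 15.7, the share between loci was 34.7%, and it was 40.3% over ranks. As listed, the −log10 p of these 5 peaks stood far above the other values of their loci. At chr4:147380648-147412909 (minus strand), the peak at the 5′ end had 400 and the next highest of the 29 peaks had 29.1. At chr11:33374897-33413735 (minus strand), the peak at the 5′ end had 400 and the next highest of 34 had 72.5. The other 3 lay on chromosome 2, in the even locus from 51928602, and, as a pair, at chr15:37928070-37977335 (minus strand). Locus medians of fold change and −log10 p were hardly related, with a Spearman correlation of 0.07 over the 96 loci.

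Along the loci, the median −log10 p was higher toward the 5′ end than toward the 3′ end. These directions take the listed strand as that of the bound RNA, which no label states. In 5 equal parts of the span, from 5′ to 3′ by the listed strand, the median −log10 p was 15.3, 15.2, 14.1, 12.9 and 12.3. The median log2 fold change in the same parts was 2.79, 2.89, 2.81, 2.74 and 2.71, highest in the second part, and the share of peaks past 8-fold was 36.7%, 42.6%, 35.1%, 31.7% and 29.9%. The peaks themselves were spread over the parts with 708, 660, 613, 580 and 680 peaks. The peak with the highest −log10 p of its locus lay in the first part in 36 loci and in the last in 9. The peak with the highest fold change was spread more evenly, with 23, 19, 17, 20 and 17 loci. The Spearman correlation of position with −log10 p was below 0 in 68 of 96 loci with a median of -0.17, and for log2 fold change it was below 0 in 58 with a median of -0.08. These loci are part of the larger set of clusters in which a fall of −log10 p toward the 3′ end was described before, so they add no separate evidence for it. The median peak width in the 5 parts was 28, 24, 25, 27 and 23 nt, which did not follow the order of the −log10 p, and the part of width in the p-values was not tested here.

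**Figure D5:**
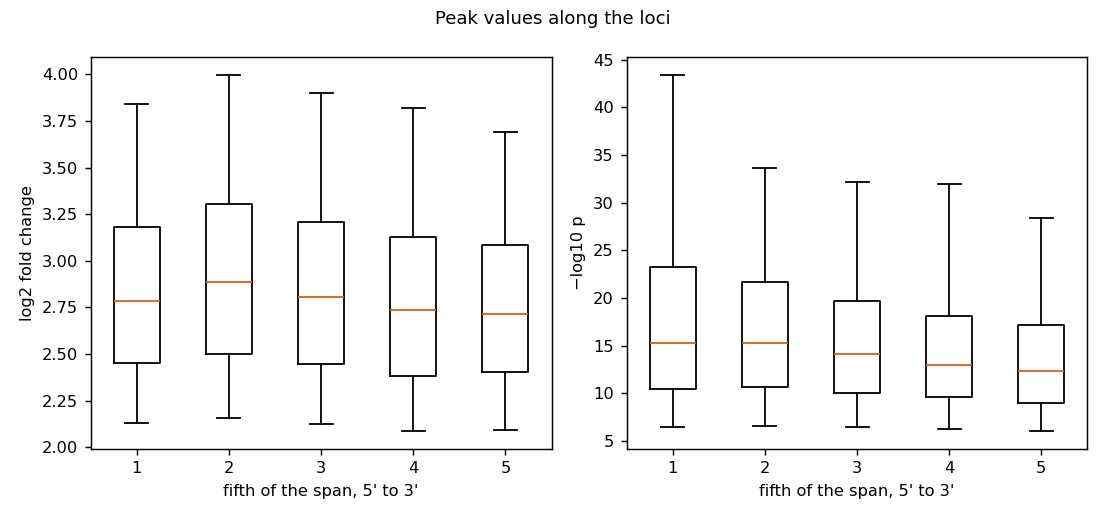
Boxes give the quartiles and median of log2 fold change (left) and −log10 p (right) for the peaks in each of 5 equal parts of the span, 5′ to 3′, with whiskers at the 5th and 95th percentiles. Median −log10 p runs from 15.3 in the first part to 12.3 in the last, while median log2 fold change stays between 2.71 and 2.89.

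The 96 loci were set beside loci with fewer and with more peaks. The median fold change of the peaks was 6.89 in the 96 loci, 6.56 in the 240 loci of more than 20000 nt with 10 to 24 peaks and 7.79 in the 28 such loci with 50 or more peaks. The median −log10 p was 13.9, 10.2 and 19.6 in the same order, and the share of variance in log2 fold change between loci was 24%, 25.2% and 32.4%. The median distance between sites was 1013 nt, 1877 nt and 705 nt. The median span was 36585.5 nt, 27275 nt and 54701.5 nt, so it was longer in the sets with more peaks. The rule sets the number of peaks, the least span and the longest gap. Its part in the order of the distances was not tested. The 50 loci that had 25 to 49 peaks on at most 20000 nt, compact ones with the same number of peaks, had a median distance of 279 nt, a median fold change of 6.78 and a median −log10 p of 17.3. Their coefficient of variation had a median of 1.24, while it was 1.09 in the 96 long loci. It was 0.92 in the long loci with 10 to 24 peaks and 1.20 in those with 50 or more. Over the loci of the whole list in which it could be computed, it was 0.91. The number of sites in a locus differs between these sets, and its part in this measure was not tested. The share of variance in log2 fold change between loci was 16.2% in the compact loci and 30.3% in the whole list. None of these differences was tested, because the members were chosen from the same contrast.

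The limits of the rule cut through a continuous range. Loci of more than 20000 nt numbered 8 with 25 peaks, just inside, and 9 with 24, just outside, and 2 with 49, just inside, and 2 with 50, just outside. The medians of the loci with 25 peaks ran from 2.39 to 3.01 in log2 fold change and those of the loci with 24 peaks from 2.45 to 3.23. The shortest locus inside, at chr14:31984711-32004715 (minus strand), spanned 20005 nt with 37 peaks at a median of 2.76. The longest one outside, at chr11:68829620-68849554 (plus strand), spanned 19935 nt with 36 peaks at a median of 2.81.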

How the data were processed

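Cutadapt 1.18, STAR 2.6.1b and mm9 are named in the submitters' processing notes, without roles. The peak caller, the test, the pooling of replicates and the 2 sides of the ratio, not given in the sources used here, stay unknown. The deposited list gives a log2 fold change and a −log10 p-value per peak, both the authors' own, taken as listed. The list has no values per library, so nothing was averaged or tested over samples, and every value is a description. Start and end were both counted as part of a peak. Peaks were joined into loci (gaps of at most 10000 nt) and sites (at most 50 nt) per strand, and variance was split by one-way variance components. On simulated peaks, 168 of 168 planted loci were recovered. All planted gaps within a locus were far below the 10000 nt limit, and planted loci lay much farther apart than it. This checked the code alone and not how well real loci are delimited. Loci are named by extremes of peak number, span, median and middle range of fold change, evenness and share at 8-fold, plus the highest peak. The members, lists and measures were chosen with earlier results of these data known. Alternatives changed the gap, span, threshold and joining. Tools were numpy 2.4.6, scipy 1.17.1, pandas 2.3.3 and matplotlib 3.10.9 under Python 3.11.15.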

Additional observations from a re-analysis of the deposited data

How the results depend on the processing

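No paired analysis was possible because fold changes and p-values are listed per peak and not per library. Leaving out a replicate could not be done either. The number of loci followed the rule: 96 as described, 32 with gaps of at most 5000 nt, 151 with 20000 nt, 135 with spans over 10000 nt, 15 with spans over 50000 nt, 47 with sites counted in place of peaks and 11 from 8-fold peaks alone. The median distance between sites was 1608 nt with spans over 50000 nt and 188 nt between unjoined peaks, and otherwise stayed within 1.5 times of 1013 nt. The longest distance took 13.0% of the span in loci over 50000 nt. The share of log2 fold change variance between loci was 13.8% among 8-fold peaks alone, with 11 loci, and within 1.5 times of 24% elsewhere. That of −log10 p was 34.7% without the values of 400 and 15.7, but 14.4% without 15.7 and 5.38, the most frequent values, so the change came with the 5 peaks at 400. It was 40.3% over ranks. The setting without 400 and the limit on introns were chosen after seeing the data. Past 16-fold with p at most 1e-05 lay 3.67% of the member peaks (3.65% of the list), and past 8-fold 39.3% of sites by their highest peak. Against any other peak of the same site, the highest can only raise this share of sites. A share of sites and a share of peaks are in unlike units. No share for the sites of the whole list is given here, so nothing is read from it. Depth is unknown, so what it limits cannot be measured.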
